A study of Mus musculus with 192 samples.

Results

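The libraries described here compare mouse bone marrow-derived dendritic cells given 3 ligands at once, LPS + SeV + cGAMP, with the same cells given each of the 3 pairs of those ligands. They were chosen by the group names in the labels, and they are 4 of the 64 groups of the series, with 3 libraries for the triplet and 3 for each of LPS + SeV, LPS + cGAMP and SeV + cGAMP, 12 in all. The whole study measured mRNA by sequencing in those 64 groups of 3 libraries, which covered 7 ligands of innate immune receptors singly, in pairs and in triplets. Cells came from the marrow of female mice of the C57BL/6J strain, 6 to 8 weeks of age, were grown with GM-CSF, plated at 100000 per well and exposed to ligands for 6 hours. All groups shared this strain, sex, culture and exposure time, and the group labelled Ctrl, along with LPS, SeV and cGAMP alone (9 libraries), served as reference for the last comparison. The labels name the dinucleotide as 3',3'-cGAMP and give neither a dose for any ligand nor the preparation of SeV. They also do not say whether replicates were separate cultures or animals. The p-values of the main fit measure the spread between libraries within all 64 groups of the series, which may be technical.

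The ligands act on different receptors. LPS, a glycolipid of the outer membrane of Gram-negative bacteria, is detected by Toll-like receptor TLR4, which signals through MyD88 to NF-κB and through TRIF to the transcription factor IRF3. SeV (Sendai virus) carries RNA that is sensed in the cytosol by RIG-I (the Ddx58 product) and relayed by MAVS, and cGAMP is a cyclic dinucleotide that binds STING (the Tmem173 product). Both cytosolic routes activate IRF3 and type I interferon, and dendritic cells are known for turning such signals into cytokines, chemokines and antigen presentation.

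Each library held between 110231 and 242927 UMI counts (median 173104), and a UMI marks 1 original cDNA molecule. Levels are given as CPM, UMI counts scaled to a common library total after TMM normalization. Defining markers were read as a check of the labelled cell type. All 13 dendritic cell markers had counts in the triplet, and their summed level was 8140 to 8500 CPM, against 7880 to 8190 in LPS + SeV, 7690 to 8750 in LPS + cGAMP and 5340 to 6060 in SeV + cGAMP. Flt3 and Zbtb46, which mark classical dendritic cells, were at most 6.73 CPM on average in any of these groups, and macrophage markers summed to 2330 to 2620 CPM in the triplet and up to 3830 CPM in SeV + cGAMP. Of 11 neutrophil markers in the table, 9 had counts in the triplet and summed to 802 to 975 CPM, with Mpo and Elane at 0. The 7 T or NK cell and 8 erythroid markers were at 0 in all 12 libraries. B cell and mast cell or basophil markers summed to at most 9.03 CPM. In bulk libraries such as these, fewer cells of a type and less RNA per cell cannot be told apart.

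How many genes changed depended on which ligand the triplet held beyond the pair. All ligands of a group were given together, so adding a ligand here means comparing groups with and without it. Differences were tested on counts with edgeR's quasi-likelihood test in 1 fit of all 64 groups over 4720 genes, with Benjamini-Hochberg adjustment, and a gene was called at an adjusted p under 0.05. Adding cGAMP to LPS + SeV changed 191 genes (4.05% of those tested), 111 upwards (2.35%) and 80 downwards (1.69%). Adding LPS to SeV + cGAMP changed 615 genes (13%), 329 upwards (6.97%) and 286 downwards (6.06%). With library size alone the split turned, to 281 upwards and 356 downwards. Adding SeV to LPS + cGAMP changed 0 genes (0%), also by DESeq2, while 4.07% of genes had an unadjusted p under 0.05. The triplet libraries enter all of these comparisons, which are therefore not independent of each other.

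The same order was visible in whole profiles. Between the triplet and LPS + cGAMP, pairwise chi-square statistics over genes had a median of 1.36 per degree of freedom (range 1.32 to 1.52), where pairs of libraries within the triplet ranged from 1.26 to 1.38, within LPS + cGAMP from 1.19 to 1.29 and within SeV + cGAMP from 1.32 to 1.69. Against LPS + SeV the median was 3.06, and against SeV + cGAMP it was 6.78. Triplet and LPS + cGAMP libraries thus differed little more than libraries within these groups did. Among the 105 additions of a ligand to a pair in the series, the number of called genes had a median of 183 and ran from 0 to 1232, and 15 additions gave 0. For the 15 additions of SeV the median was 4 genes, 5 of them gave 0 and 5 gave 267 to 829. For the 15 additions of cGAMP it was 275, and for the 15 of LPS it was 490.

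**Figure D1:**
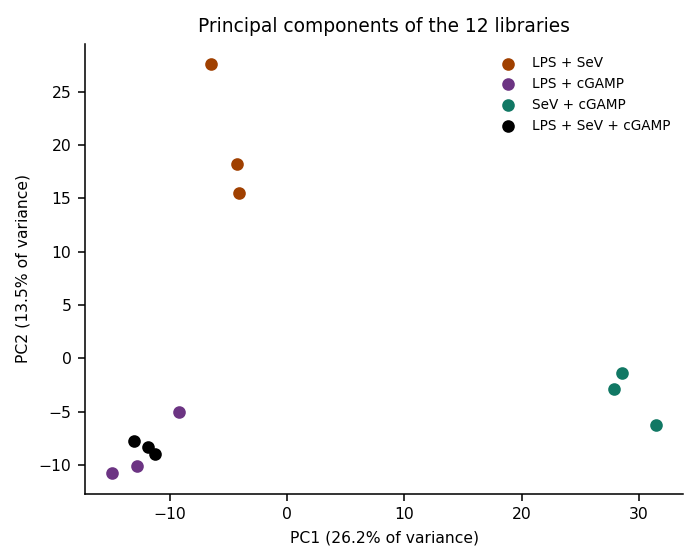
First and second principal components (26.2% and 13.5% of variance, horizontal and vertical axis) of the 12 libraries, 1 point each, coloured by group. Triplet libraries lie beside those of LPS + cGAMP, LPS + SeV libraries lie apart along the second component, and SeV + cGAMP libraries lie apart along the first.

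SeV was not inert on its own. Against Ctrl it changed 917 genes, cGAMP 1023 and LPS 1415. Added to LPS, SeV changed 10 genes, and added to cGAMP it changed 2. For cGAMP the count was 226 on top of LPS, 100 on top of SeV and 191 on top of both. LPS changed 557 genes on top of SeV, 613 on top of cGAMP and 615 on top of both. These counts are at the same threshold and in the same fit, and they share libraries.

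**Figure D2:**
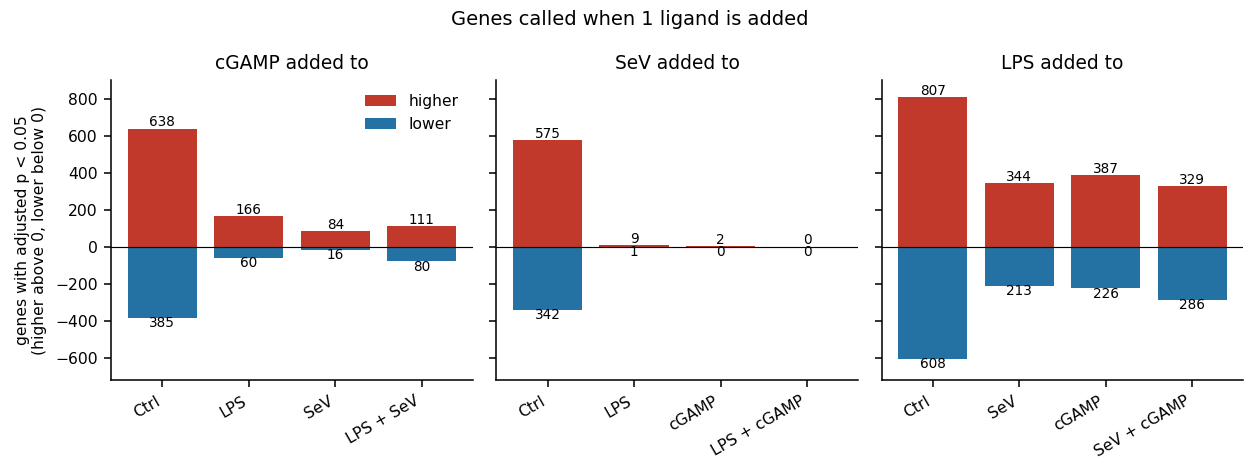
Number of genes called higher (bars above 0) or lower (bars below 0) when cGAMP, SeV or LPS was added to the group named under each bar, at an adjusted p under 0.05. Bars for SeV are tall against Ctrl only (575 higher, 342 lower) and reach 0 when SeV was added to LPS + cGAMP, while the bars for LPS hold 329 or more genes higher in each setting shown.

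With cGAMP as the third ligand beside LPS + SeV, inflammatory cytokines were higher. Of the 17 tested members of the cytokine list, 8 rose (Tnf, Il6, Il1a, Il1b, Il12b, Tnfsf9, Tnfsf15 and Inhba) and 1 fell (Tnfsf10). Over all tested genes 2.35% rose and 1.69% fell. The list's median log2 fold change was 0.67, against -0.01 over all tested genes. Il6, an acute-phase and B cell cytokine, stood at 3010, 2850 and 3150 CPM in the triplet and at 2040, 1630 and 1710 CPM in LPS + SeV. The 3 triplet values were all above the 3 pair values (1.68-fold, log2 fold change 0.75 ± 0.14, edgeR adjusted p = 1.98e-05). Inhba, which encodes an activin subunit, read 728, 725 and 750 CPM in the triplet and 209, 214 and 166 CPM in the pair, with no overlap (3.78-fold, log2 fold change 1.92 ± 0.25, edgeR adjusted p = 7.51e-10). Tnfsf15, a TNF family ligand, went from 561, 680 and 640 CPM in the pair to 1400, 1820 and 2010 CPM (log2 fold change 1.46 ± 0.21, edgeR adjusted p = 2.98e-08). Il12b, the shared subunit of interleukin-12 family cytokines, was 101, 56.6 and 90.7 CPM in the pair and 288, 324 and 257 CPM in the triplet (log2 fold change 1.82 ± 0.42, edgeR adjusted p = 0.00174), and Il1a rose 1.77-fold (log2 fold change 0.83 ± 0.14, edgeR adjusted p = 3.24e-06).

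Tnf, the prototype inflammatory cytokine, and Il1b also rose, but their calls did not hold in every fit with 1 library fewer. Tnf was 6280, 7310 and 7060 CPM in the triplet and 4730, 4630 and 4630 CPM in LPS + SeV, without overlap (log2 fold change 0.56 ± 0.15, edgeR adjusted p = 0.0141). The edgeR call did not hold without replicate 2 or 3 of the triplet or without replicate 2 or 3 of LPS + SeV (adjusted p 0.0535 to 0.0852), while the log2 fold change stayed between 0.51 and 0.62 over the settings run. Il1b was 4190, 3900 and 4690 CPM against 3240, 3280 and 3040 CPM (log2 fold change 0.42 ± 0.12, edgeR adjusted p = 0.0169), and its call was lost without replicate 3 of the triplet or without replicate 3 of LPS + SeV (adjusted p 0.108 to 0.15). Il10, an anti-inflammatory cytokine, had 13 UMIs over the 3 triplet libraries and 2 over the pair (ratio 6.15, 95% counting interval 1.39 to 56.1) and was not called (edgeR adjusted p = 0.134).

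Of 18 chemokines tested, 6 rose (Cxcl1, Cxcl2, Ccl2, Ccl3, Ccl4 and Ccl7) and 0 fell, against 2.35% and 1.69% of all genes. The list's median was 0.09. Cxcl1, a neutrophil chemoattractant, rose most among the named ones, from 134, 69.2 and 121 CPM in LPS + SeV to 622, 363 and 553 CPM in the triplet (4.74-fold, log2 fold change 2.25 ± 0.29, edgeR adjusted p = 7.51e-10). Its relative Cxcl2 went from 913, 906 and 836 to 1970, 1810 and 2040 CPM (log2 fold change 1.14 ± 0.19, edgeR adjusted p = 2.66e-06). Neither gene's groups overlapped. The monocyte chemoattractant Ccl2 measured 260, 315 and 307 CPM in the pair and 804, 972 and 790 CPM in the triplet (log2 fold change 1.53 ± 0.22, edgeR adjusted p = 4.39e-08). Ccl3 and Ccl4, which attract monocytes and T cells, were 1.9-fold (log2 fold change 0.93 ± 0.14, edgeR adjusted p = 3.39e-07) and 1.7-fold (log2 fold change 0.77 ± 0.15, edgeR adjusted p = 0.000119) higher. Ccl5, which attracts T cells and monocytes, was 35700, 34600 and 35300 CPM against 28800, 27200 and 30500 CPM and was not called (log2 fold change 0.29 ± 0.14, edgeR adjusted p = 0.315), though it was in a fit of these 6 libraries alone (adjusted p = 7.14e-06). Several of these genes have near-identical relatives (Cxcl1 and Cxcl2, Ccl3 and Ccl4, Ccl2 and Ccl7), and how reads shared between relatives were assigned, and whether strand was used, is not given in the sources used here. Several genes named here overlap a gene on the opposite strand in the annotation, among them Il1a, Il1b, Inhba, Ccl2, Cxcl10 and Oasl1, so their counts are uncertain to that extent.

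The promoters of 4 of these chemokine and cytokine genes are printed to show the NF-κB- and interferon-type sequence elements next to genes that behaved differently: Il6, Cxcl1 and Cxcl2 rose when cGAMP was added to LPS + SeV and when LPS was added to SeV + cGAMP, and Cxcl10 was called in neither of these additions, although each ligand alone raised it over Ctrl. They were chosen after the values were seen. Each is the 250 bases before the transcription start from RefSeq (build GRCm38.p6), read 5′ to 3′ on the gene's strand. Capitals mark matches, on either strand, to the NF-κB consensus element (κB) and, as the leftmost run in Cxcl10, to GAAANNGAA, part of the interferon-stimulated response element.
Il6: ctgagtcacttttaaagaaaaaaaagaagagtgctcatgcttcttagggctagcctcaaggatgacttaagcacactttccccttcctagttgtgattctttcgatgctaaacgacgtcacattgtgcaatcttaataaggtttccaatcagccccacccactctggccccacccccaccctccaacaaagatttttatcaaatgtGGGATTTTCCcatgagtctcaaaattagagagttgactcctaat
Cxcl1: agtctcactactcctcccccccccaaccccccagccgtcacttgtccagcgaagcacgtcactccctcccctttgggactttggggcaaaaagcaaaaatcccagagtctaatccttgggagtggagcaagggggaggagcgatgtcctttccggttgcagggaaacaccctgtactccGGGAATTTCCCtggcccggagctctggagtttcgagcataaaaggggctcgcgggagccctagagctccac
Cxcl2: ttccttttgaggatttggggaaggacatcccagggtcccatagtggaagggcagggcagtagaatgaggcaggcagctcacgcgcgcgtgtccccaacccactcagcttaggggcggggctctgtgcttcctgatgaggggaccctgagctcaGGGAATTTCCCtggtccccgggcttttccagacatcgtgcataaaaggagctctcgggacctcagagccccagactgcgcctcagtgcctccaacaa
Cxcl10: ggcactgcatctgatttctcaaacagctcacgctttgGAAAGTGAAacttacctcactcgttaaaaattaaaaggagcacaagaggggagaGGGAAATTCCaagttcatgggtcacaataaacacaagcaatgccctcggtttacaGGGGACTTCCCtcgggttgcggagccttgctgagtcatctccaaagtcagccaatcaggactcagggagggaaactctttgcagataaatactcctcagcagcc
The windows lie at chr5:30012864-30013113 (plus strand), chr5:90890995-90891244 (plus strand), chr5:90903649-90903898 (plus strand) and chr5:92348890-92349139 (minus strand). The κB letters began 44 bases before the start in Il6, 71 bases before it in Cxcl1, 97 bases before it in Cxcl2, and 159 and 104 bases before it in Cxcl10. Cxcl1 and Cxcl2 carried the same run, GGGAATTTCCC, which matches on both strands with the matches shifted by 1 base, so they overlap. Of the 27025 promoters in the table (1 per symbol), 7.01% held the κB consensus and 7.16% held GAAANNGAA in this window. A match is a description of letters, not of factor binding.

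Among feedback and NF-κB genes there were 3 of 27 higher (Nfkbia, Bcl3 and Tnfaip3), 1 lower (Socs1) and a median of 0.10. The shares over all tested genes were 2.35% higher and 1.69% lower. Socs1, an inhibitor of JAK-STAT signalling, was 402, 478 and 378 CPM in LPS + SeV and 194, 220 and 125 CPM in the triplet (log2 fold change -1.20 ± 0.21, edgeR adjusted p = 1.38e-05). All 3 triplet values lay below the pair. Tnfaip3, which encodes the NF-κB inhibitor A20, was 1.47-fold higher (log2 fold change 0.55 ± 0.14, edgeR adjusted p = 0.00373), a call lost without replicate 3 of the triplet (adjusted p = 0.0618). The call of Nfkbia, the IκBα gene (log2 fold change 0.38 ± 0.12, edgeR adjusted p = 0.0395), was lost without replicate 3 of the triplet or without any 1 replicate of LPS + SeV (adjusted p 0.0677 to 0.328). Bcl3, a nuclear IκB protein at 52.8, 104 and 52.7 CPM in the triplet, passed narrowly (log2 fold change 1.59 ± 0.51, edgeR adjusted p = 0.0499) and was lost without replicate 2 of the triplet or without any 1 replicate of LPS + SeV (adjusted p 0.0737 to 0.411). Its adjusted p was also 0.0506 with the replicate number as a block, 0.0567 by DESeq2, 0.0518 with RLE factors and 0.382 after thinning.

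Ptgs2 (inducible cyclooxygenase), in the list of inflammatory mediators and metabolism, was 687, 791 and 777 CPM in the triplet and 410, 258 and 338 CPM in LPS + SeV, with no overlap (log2 fold change 1.18 ± 0.21, edgeR adjusted p = 8.98e-06). In that list 2 of 12 tested genes rose (Ptgs2 and Ptges) and 1 fell (Hmox1), against 2.35% and 1.69% of all genes. Tlr2, a receptor for bacterial lipopeptides, rose 2.19-fold (log2 fold change 1.13 ± 0.19, edgeR adjusted p = 4.49e-06) as the only called member of 16 genes of the LPS and Toll-like receptor machinery, a share near the 4.05% called among all genes, and Tlr4, the LPS receptor, had 8 UMIs in the triplet and 16 in the pair (log2 fold change -1.05 ± 0.67, edgeR adjusted p = 0.514). Pcna, a DNA replication clamp, was 481, 604 and 507 CPM against 343, 252 and 257 CPM (log2 fold change 0.93 ± 0.20, edgeR adjusted p = 0.000524) and was the only called one of 6 cell cycle genes.

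When cGAMP was added, 3 of 33 interferon and interferon-induced antiviral genes were called, against 4.05% of all tested genes. Of these, 2 rose (Oasl1 and Oasl2), 1 fell (Mx1), and the median was -0.16. Oasl1, an antiviral protein that also restrains interferon production, was 3040, 3090 and 3220 CPM in the triplet and 1790, 1670 and 1620 CPM in LPS + SeV (log2 fold change 0.88 ± 0.18, edgeR adjusted p = 0.000197). Ifit1, an RNA-binding antiviral protein, read 5070, 5420 and 5550 CPM and 5190, 5450 and 5380 CPM, overlapping groups whose log2 difference had a 95% interval of -0.26 to 0.26. For Cxcl10, a chemokine for activated T cells, the interval was -0.21 to 0.42, and for Irf7, which amplifies interferon production, it was -0.52 to 0.06. Ifnb1 itself, the interferon-β gene, was 194, 214 and 184 CPM in the triplet and 193, 170 and 161 CPM in the pair (log2 fold change 0.20 ± 0.28, edgeR adjusted p = 0.857), with overlap. Mx1, a GTPase that blocks viruses, was 1.31-fold lower (log2 fold change -0.39 ± 0.12, edgeR adjusted p = 0.043), which no longer passed without any 1 replicate of the triplet or without any 1 replicate of LPS + SeV (adjusted p 0.0597 to 0.173). Oasl2 (log2 fold change 0.56 ± 0.14, edgeR adjusted p = 0.00525) lost its call without replicate 2 of the triplet or without replicate 2 of LPS + SeV (adjusted p 0.053 to 0.0632).

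Genes that fell with cGAMP included Serpina3g, Maf and Fcgr1. Serpina3g, a serine protease inhibitor, was 2300, 2220 and 2500 CPM in LPS + SeV and 951, 1030 and 1030 CPM in the triplet (log2 fold change -1.22 ± 0.18, edgeR adjusted p = 1.25e-07). Maf, a transcription factor of the large Maf family, fell from 209, 201 and 232 to 35.2, 65.9 and 59.2 CPM (log2 fold change -1.99 ± 0.33, edgeR adjusted p = 2.65e-06). Fcgr1, the high-affinity IgG receptor, was 561, 428 and 448 CPM in the pair and 270, 181 and 217 CPM in the triplet (log2 fold change -1.09 ± 0.24, edgeR adjusted p = 0.00112). The groups of Serpina3g and Fcgr1 did not overlap, and for Maf the naming rule required this. Abcg1, a cholesterol exporter, fell by 1.21 on the log2 scale (edgeR adjusted p = 8.55e-06), and the ubiquitin ligase gene March1 by 1.69 (edgeR adjusted p = 0.00042). Ccr2, a receptor for Ccl2, had 3 UMIs over the triplet libraries and 22 over the pair (7.76-fold lower, 95% counting interval 2.33 to 40.5), with a call that was lost without any 1 replicate of the triplet or without replicate 3 of LPS + SeV (adjusted p 0.0613 to 0.179). Of 23 scavenger and resting-state phagocyte genes, 4 fell (Marco, Csf2rb, Ccr2 and Fcgr1) and 1 rose (Clec4e), with a median of -0.08. Over all tested genes 1.69% fell and 2.35% rose. The cholesterol list had a median of -0.98, with 3 of 15 lower (Hmgcs1, Ch25h and Abcg1) and 0 higher. Its median was also below 0 when SeV (-0.54) or LPS (-0.74) was added, comparisons that share the triplet libraries. Fcgr1 is also a macrophage marker, and those markers summed to 2920 to 3070 CPM in LPS + SeV and 2330 to 2620 CPM in the triplet. Their part in the result was not tested.

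Further genes were named for the size of their rise with cGAMP. Plagl1, a zinc finger transcription factor, had 1 UMI over the LPS + SeV libraries and 36 over the triplet (ratio 34, 95% counting interval 5.73 to 1380), at 58.7, 82.4 and 72.4 CPM in the triplet. Intu, a ciliogenesis gene, went from 25.1, 6.29 and 0 to 123, 82.4 and 112 CPM (log2 fold change 3.53 ± 0.59, edgeR adjusted p = 3.24e-06). Rcbtb1 rose from 16.8, 12.6 and 15.1 to 76.3, 98.9 and 98.7 CPM (log2 fold change 2.58 ± 0.58, edgeR adjusted p = 0.0012) and Ccne1 (cyclin E) from 58.6, 0 and 30.2 to 164, 132 and 165 CPM (log2 fold change 2.45 ± 0.49, edgeR adjusted p = 0.000139). The naming rule required non-overlapping groups here. These genes were also present in LPS + cGAMP, with means of 82.7 CPM for Plagl1, 132 for Intu, 97.6 for Rcbtb1 and 174 for Ccne1. The same rule named Mycl1, Pax4, Mid1 and Zfand2a, whose calls were each lost in at least 1 fit without 1 library, Mycl1 for instance without replicate 3 of LPS + SeV (adjusted p = 0.0778). Pax4 was lost without replicate 3 of the triplet or without replicate 1 or 2 of LPS + SeV (adjusted p 0.0615 to 0.0982), Mid1 without replicate 3 of the triplet or without replicate 2 of LPS + SeV (adjusted p 0.0633 to 0.0822) and Zfand2a without replicate 1 of the triplet or without replicate 2 of LPS + SeV (adjusted p 0.0524 to 0.0681).

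The lists for cytosolic nucleic acid sensing (17 tested), MHC class I presentation (14), MHC class II presentation (8) and glycolysis (18) had 0 called members when cGAMP was added, which is near the background, since 4.05% of all genes were called. Ddx58, the RIG-I gene, was 605 ± 53.9 CPM in the triplet and 734 ± 79.2 CPM in the pair (SD, n = 3), and Tmem173 was 26.9 ± 25.3 and 29.6 ± 22.9 CPM. Thinning ended the calls of Bcl3, Ccr2, Ch25h, Hmgcs1, Icam1, Il1b, Mx1, Nfkbia and Ptges with cGAMP, and fitting without the filter on low counts those of Bcl3, Clec4e, Hmgcs1, Icam1, Mx1 and Nfkbia. Some calls counted in the lists above were also lost with 1 library fewer. Ptges was lost without replicate 1 of the triplet (adjusted p = 0.0888) and Hmox1 without replicate 2 or 3 of the triplet or without replicate 1 or 3 of LPS + SeV (adjusted p 0.108 to 0.255). Clec4e was lost without replicate 1 of the triplet or without replicate 2 or 3 of LPS + SeV (adjusted p 0.062 to 0.116) and Marco without replicate 1 or 2 of the triplet or without replicate 1 of LPS + SeV (adjusted p 0.0888 to 0.2). Of the cholesterol genes, Hmgcs1 was lost without replicate 1 or 2 of the triplet or without replicate 2 or 3 of LPS + SeV (adjusted p 0.0596 to 0.309) and Ch25h without replicate 1 or 2 of the triplet or without replicate 3 of LPS + SeV (adjusted p 0.0537 to 0.119). Among 12 guanylate-binding and immunity-related GTPases, which act against intracellular microbes, 2 fell (Gbp4 and Iigp1). Iigp1 was 536, 849 and 715 CPM in the pair and 364, 418 and 461 CPM in the triplet (log2 fold change -0.78 ± 0.20, edgeR adjusted p = 0.00573), a call lost without replicate 1 of the triplet or without replicate 2 of LPS + SeV (adjusted p 0.0652 to 0.117). Gbp4 (log2 fold change -0.70 ± 0.20, edgeR adjusted p = 0.0179) was lost without replicate 2 of the triplet or without replicate 1 or 3 of LPS + SeV (adjusted p 0.0635 to 0.163) and overlaps Gbp8 and Gbp9 in the annotation. Among 13 maturation genes, Icam1 and Serpina3g fell, and the costimulatory Cd40 (log2 fold change 0.13 ± 0.14, edgeR adjusted p = 0.752) and Cd86 (log2 fold change 0.65 ± 0.22, edgeR adjusted p = 0.0765) were not called. The call of Icam1 (log2 fold change -0.55 ± 0.15, edgeR adjusted p = 0.0181) was lost without replicate 1 or 3 of the triplet or without replicate 2 or 3 of LPS + SeV (adjusted p 0.0581 to 0.145). Counts of called genes depended on the number of libraries. Leaving out any 1 of the 6 libraries gave between 125 and 143 genes, with 125 without replicate 2 of the triplet and without replicate 2 or 3 of LPS + SeV. Higher calls then numbered 72 to 87, lowest without replicate 2 of LPS + SeV. Lower calls numbered 46 without replicate 3 of LPS + SeV, 50 and 51 without replicate 2 and 1 of the triplet, 53 without replicate 1 or 2 of LPS + SeV and 56 without replicate 3 of the triplet.

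**Figure D3:**
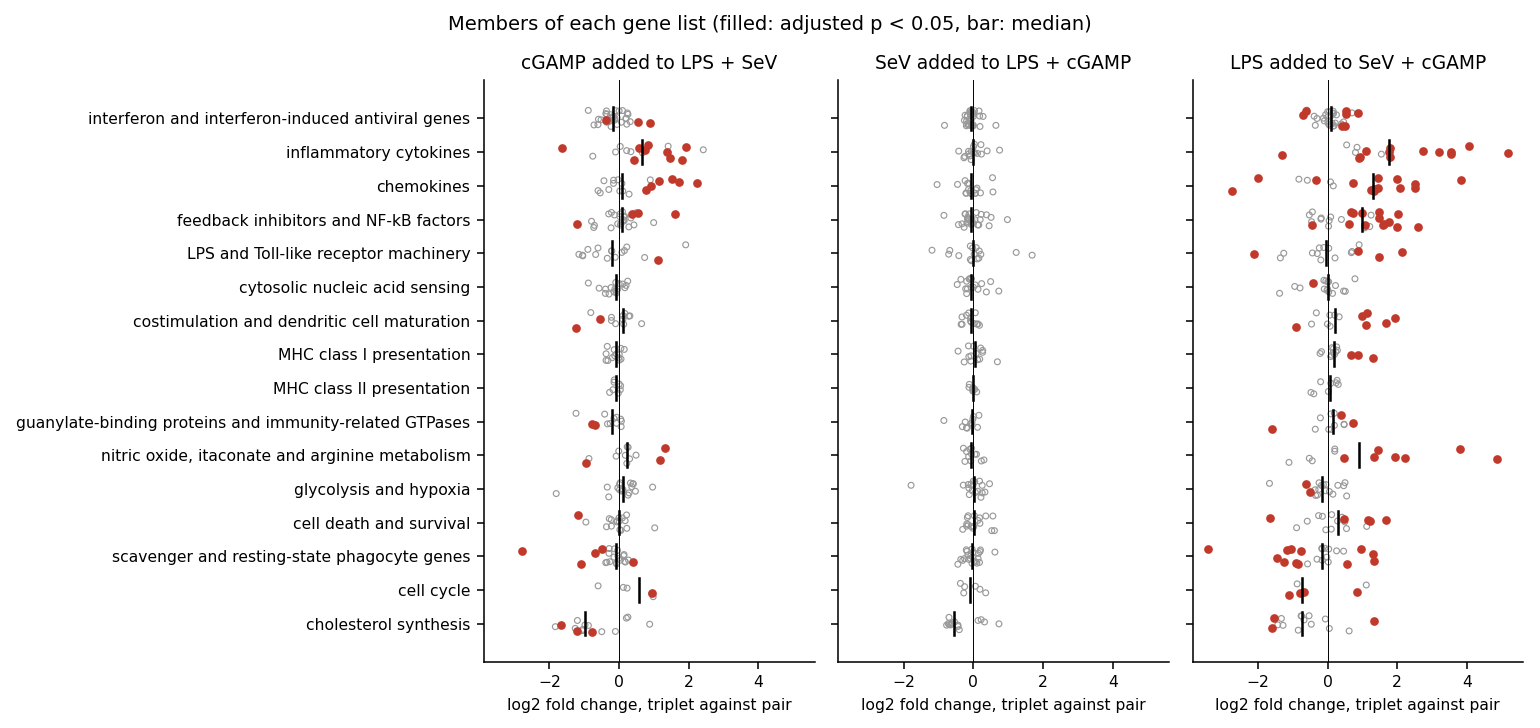
Log2 fold change of the triplet against each pair (horizontal axis) for every tested member of 16 gene lists (rows), with filled points at an adjusted p under 0.05 and a bar at the list's median. Cytokines are shifted right when cGAMP (median 0.67) or LPS (median 1.76) was added, and points of the middle panel, where SeV was added, are all open.

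When SeV was added to LPS + cGAMP, 0 of all 4720 tested genes (0%) were called. It follows that 0 members of the 16 lists and none of the genes that cGAMP had moved were called. Il6 was 3500, 3200 and 2970 CPM in LPS + cGAMP and 3010, 2850 and 3150 CPM in the triplet, with overlap, and the log2 difference had a 95% interval of -0.36 to 0.16. Inhba read 691, 726 and 510 CPM in the pair, and its interval was -0.18 to 0.62. Cxcl1 read 691, 616 and 420 CPM there (-0.56 to 0.30) and Ptgs2 805, 810 and 799 CPM (-0.46 to 0.26). Of these 4 genes, Ptgs2 had all 3 triplet values below the pair. Socs1 was 131, 159 and 131 CPM in the pair (interval -0.14 to 0.89) and Serpina3g 884, 865 and 1160 CPM (-0.36 to 0.41). Both pair ranges overlap the triplet. In Tnf and Ccl3, which cGAMP had also raised, all 3 triplet values lay below LPS + cGAMP. In Ccl2, Il12b and Il1b the triplet and this pair overlapped. Tnf was 7740, 8840 and 8280 CPM in the pair (interval -0.57 to 0.03) and 6280, 7310 and 7060 CPM in the triplet, and Ccl3 was 8110, 8760 and 8750 CPM in the pair (-0.47 to 0.08) and 7420, 7490 and 7460 CPM in the triplet.

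Across the 33 interferon-induced genes the log2 differences ran from -0.83 (Oas1g, SE 0.50) to 0.65 (Ifnb1). Ifit1 was 5700 ± 163 CPM in LPS + cGAMP and 5350 ± 245 CPM in the triplet (SD, n = 3; 95% interval of the log2 difference -0.35 to 0.17). For Cxcl10 the interval was -0.39 to 0.24, for Mx1 -0.32 to 0.17 and for Oasl1 -0.36 to 0.31. In each of these 4 genes the groups overlapped. Ifnb1 was at 96.3, 131 and 140 CPM in LPS + cGAMP and 194, 214 and 184 CPM in the triplet, so that all 3 triplet libraries were above the pair. Its log2 fold change was 0.65 ± 0.30 with an unadjusted p of 0.0324, and it was not called (edgeR adjusted p = 0.988). The group sums behind these values were 100 and 61 UMIs.

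The smallest adjusted p in this comparison was 0.453. Over all 4720 genes the median half-width of the 95% interval was 0.82 on the log2 scale, and 2002 genes (42.4%) had an interval inside 1 log2 unit on both sides of 0. In the other genes the interval reached past that size, so a 2-fold difference was not bounded at this depth. In a fit restricted to the 6 libraries compared, which estimates the spread from those alone, 6 genes were called, all lower in the triplet. They were chosen for naming after their values were seen: the actin gene Actb, Cxcl2, the pattern recognition protein Ptx3, the tetraspanin Cd53, the motor protein gene Myo10 and the receptor gene Notch2. Actb had 32000, 27300 and 26200 CPM in the triplet and 36800, 38500 and 34600 CPM in LPS + cGAMP (log2 fold change -0.34, edgeR adjusted p = 0.000178 in that fit and 0.988 in the fit of all libraries). Cxcl2 had 1970, 1810 and 2040 CPM in the triplet and 2790, 2940 and 2270 CPM in the pair, without overlap (adjusted p = 0.00351 and 0.988 by the same edgeR fits).

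**Figure D4:**
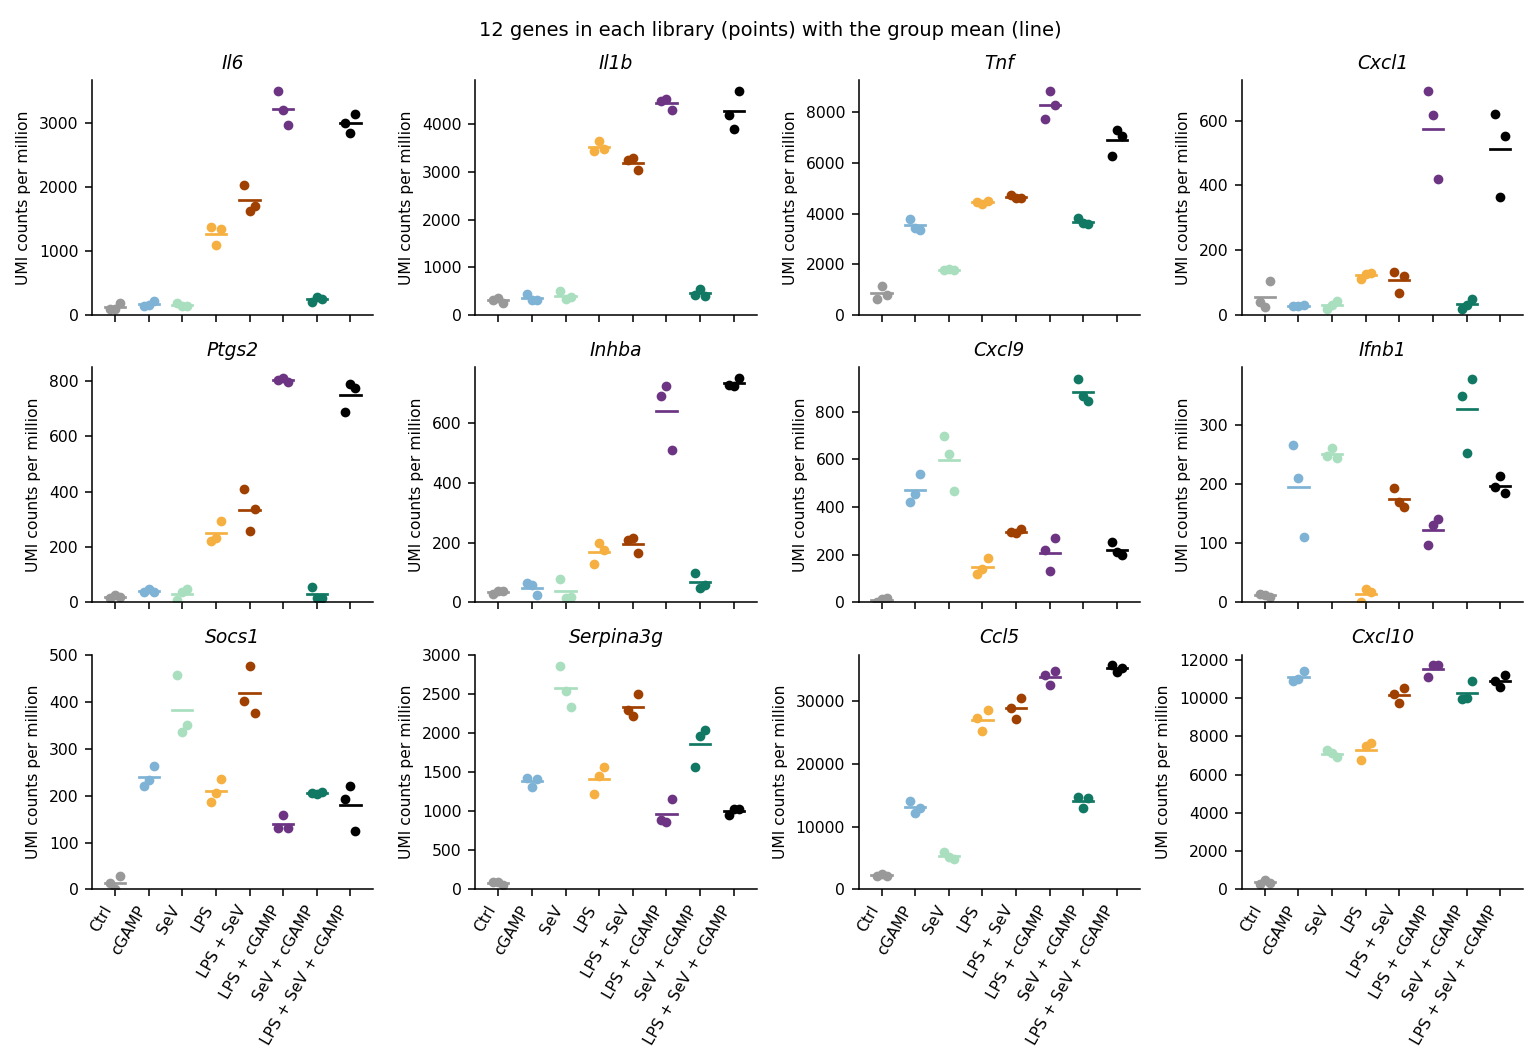
CPM of 12 genes (vertical axis, from 0) in each of 3 libraries per group (points) with the group mean (line), for Ctrl, the 3 single ligands, the 3 pairs and the triplet. For Il6, Cxcl1, Ptgs2 and Inhba the triplet stands near LPS + cGAMP and above the other 2 pairs, for Cxcl9 SeV + cGAMP stands highest, and for Cxcl10 the 4 combinations all lie between 9730 and 11700 CPM.

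LPS added the most. On top of SeV + cGAMP it raised 12 of 17 cytokines, with a median log2 fold change of 1.76 (0.00 over all tested genes), and lowered 1, Tnfsf10, the death ligand TRAIL. The shares over all tested genes were 6.97% raised and 6.06% lowered. Il6 was 206, 283 and 260 CPM in SeV + cGAMP and 3010, 2850 and 3150 CPM in the triplet (11.7-fold, log2 fold change 3.55 ± 0.17, edgeR adjusted p = 3.09e-49). Il1b, the pyrogenic interleukin-1β, rose from 420, 556 and 401 to 4190, 3900 and 4690 CPM (9.16-fold, log2 fold change 3.20 ± 0.14, edgeR adjusted p = 6.18e-55), which gave the smallest adjusted p of the comparison. In both genes every triplet library lay far above every pair library. Il12a, a subunit of interleukin-12, had 3 UMIs in the 3 pair libraries and 127 in the triplet (ratio 40.3, 95% counting interval 13.5 to 198). Il12b went from 17.9, 21 and 11.3 to 288, 324 and 257 CPM (log2 fold change 4.07 ± 0.59, edgeR adjusted p = 3.4e-09), Inhba from 98.4, 47.2 and 56.5 to 728, 725 and 750 CPM (log2 fold change 3.53 ± 0.31, edgeR adjusted p = 9.38e-22), and Il1a rose 6.66-fold (log2 fold change 2.73 ± 0.16, edgeR adjusted p = 7.56e-38). Tnf, which SeV + cGAMP already held at 3830, 3640 and 3590 CPM, rose 1.87-fold (log2 fold change 0.90 ± 0.16, edgeR adjusted p = 1.12e-06). Il27, a heterodimeric cytokine subunit counted among the rises, was lost without replicate 1 or 2 of the triplet or without replicate 1 of SeV + cGAMP (adjusted p 0.0533 to 0.0587).

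Of the 18 chemokines (median 1.29), 11 rose and 3 fell (Cxcl9, Ccl6 and Ccl12), against 6.97% and 6.06% of all genes. Cxcl1 was 17.9, 31.5 and 50.8 CPM in SeV + cGAMP and 622, 363 and 553 CPM in the triplet (14.1-fold, log2 fold change 3.82 ± 0.36, edgeR adjusted p = 7e-19). Ccl22, a ligand of CCR4 made by mature dendritic cells, went from 322, 304 and 181 to 1280, 1000 and 1090 CPM (log2 fold change 2.08 ± 0.17, edgeR adjusted p = 4.34e-23), and Ccl5 from 14700, 13000 and 14500 to 35700, 34600 and 35300 CPM (log2 fold change 1.32 ± 0.14, edgeR adjusted p = 1.6e-15). None of these groups overlapped. Cxcl9, an interferon-inducible chemokine for T cells, went the other way, from 939, 865 and 847 CPM in SeV + cGAMP to 252, 209 and 197 CPM (log2 fold change -2.00 ± 0.21, edgeR adjusted p = 4.39e-16). Ccl12 fell from 197, 121 and 181 to 17.6, 22 and 32.9 CPM (log2 fold change -2.73 ± 0.46, edgeR adjusted p = 5.5e-07). Ccl4 was not called (8760, 8770 and 9740 CPM in the pair, 9520, 10300 and 10700 CPM in the triplet, log2 fold change 0.16 ± 0.15, edgeR adjusted p = 0.578), although its relative Ccl3 rose 2.74-fold (log2 fold change 1.46 ± 0.15, edgeR adjusted p = 4.16e-17).

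NF-κB and feedback genes (median 0.98) rose in 13 of 27 cases and fell in 1, Atf3, against 6.97% and 6.06% of all genes. Of these, Bcl3 was lost without replicate 2 of the triplet or without replicate 1 or 3 of SeV + cGAMP (adjusted p 0.0653 to 0.306) and by DESeq2 (adjusted p = 0.0558). Socs3, an inhibitor of interleukin-6 family signalling, was 107, 36.7 and 73.4 CPM in the pair and 405, 505 and 303 CPM in the triplet (log2 fold change 2.59 ± 0.26, edgeR adjusted p = 1.39e-17), and Nfkb2, an NF-κB subunit, rose 3.37-fold (log2 fold change 1.75 ± 0.19, edgeR adjusted p = 4.59e-15). Cd14, the co-receptor that hands LPS to TLR4, was 259, 356 and 248 CPM in SeV + cGAMP and 1420, 1130 and 1360 CPM in the triplet (log2 fold change 2.15 ± 0.17, edgeR adjusted p = 6.48e-25). Of 16 receptor and adaptor genes, 3 rose (Tlr1, Tlr2 and Cd14) and 1 fell (Tlr13), with the median at -0.04, where 13% of all genes were called. Tlr13 was lost without replicate 1 or 2 of the triplet or without replicate 2 of SeV + cGAMP (adjusted p 0.059 to 0.474) and Tlr1 without replicate 3 of SeV + cGAMP (adjusted p = 0.0801), and Tlr4 was not called (log2 fold change -1.35 ± 0.64, edgeR adjusted p = 0.174).

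Of 12 genes listed for nitric oxide, itaconate and arginine metabolism, which include prostaglandin enzymes, transporters and redox genes, 7 rose (Nos2, Irg1, Slc7a2, Slc7a11, Sod2, Ptgs2 and Ptges) and 0 fell, with a median of 0.90. Over all tested genes 6.97% rose and 6.06% fell. Ptgs2 was 53.7, 15.7 and 16.9 CPM in SeV + cGAMP and 687, 791 and 777 CPM in the triplet (29.1-fold, log2 fold change 4.86 ± 0.34, edgeR adjusted p = 5.96e-30). Nos2, inducible nitric oxide synthase, went from 8.95, 15.7 and 5.65 to 135, 159 and 171 CPM (log2 fold change 3.80 ± 0.55, edgeR adjusted p = 3.39e-09). Slc7a2, an arginine transporter, rose 2.72-fold (log2 fold change 1.44 ± 0.12, edgeR adjusted p = 4.58e-24), as did the superoxide dismutase gene Sod2 (2.5-fold, log2 fold change 1.32 ± 0.11, edgeR adjusted p = 4.58e-24). Irg1, which makes itaconate, was already high in the pair and rose 1.39-fold (log2 fold change 0.48 ± 0.11, edgeR adjusted p = 0.000251). Every triplet library was above every pair library in all 5 genes.

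Among 13 maturation genes, 5 rose (Cd40, Cd83, Ccr7, Fscn1 and Cd200) and 1 fell (Serpina3g), against 6.97% and 6.06% of all genes. Cd40, the receptor for T cell help, was 501, 503 and 559 CPM in SeV + cGAMP and 1950, 1970 and 2030 CPM in the triplet (3.79-fold, log2 fold change 1.92 ± 0.16, edgeR adjusted p = 7.5e-24). Ccr7, which guides dendritic cells to lymph nodes, went from 295, 320 and 361 to 804, 533 and 612 CPM (log2 fold change 0.98 ± 0.17, edgeR adjusted p = 1.15e-06), and Fscn1, an actin bundler of mature dendritic cells, from 188, 246 and 198 to 487, 423 and 467 CPM (log2 fold change 1.10 ± 0.20, edgeR adjusted p = 2.36e-06). Cd86 was not called (349, 377 and 412 CPM and 393, 544 and 375 CPM, log2 fold change 0.20 ± 0.21, edgeR adjusted p = 0.636), and Cd83 was lost without replicate 2 of the triplet or without replicate 3 of SeV + cGAMP (adjusted p 0.0694 to 0.167). Ccl17, Ccl22, Fscn1 and Ccr7 are also among the 13 dendritic cell markers, whose sum was 5340 to 6060 CPM in the pair. The part of cell numbers in these results was not tested. MHC class II genes had 0 of 8 called, near the background of 13%, and MHC class I presentation had 3 of 14 higher (Tap2, Psme2 and Erap1), against 6.97% of all genes. Psme2, a proteasome activator subunit, was 805, 519 and 706 CPM and 1400, 1210 and 1030 CPM (log2 fold change 0.87 ± 0.14, edgeR adjusted p = 3.83e-08). Tap2 was lost without replicate 2 or 3 of the triplet or without replicate 1 or 2 of SeV + cGAMP (adjusted p 0.103 to 0.213) and Erap1 without replicate 2 or 3 of the triplet or without replicate 3 of SeV + cGAMP (adjusted p 0.119 to 0.291).

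When LPS was added, 7 of 33 interferon and interferon-induced genes were called, against 13% of all tested genes, with 5 higher (Isg15, Oasl2, Ifi44, Ifitm3 and Trim30a), 2 lower (Ifnb1 and Ifit3) and a median of 0.10. Isg15, a ubiquitin-like antiviral modifier, was 1560, 1490 and 1370 CPM in SeV + cGAMP and 2220, 1990 and 2170 CPM in the triplet (log2 fold change 0.53 ± 0.14, edgeR adjusted p = 0.00235). Ifit3 was 3220, 3100 and 3650 CPM and 2340, 1970 and 2140 CPM (log2 fold change -0.63 ± 0.17, edgeR adjusted p = 0.0036), lower in all 3 triplet libraries. Ifnb1 was 349, 252 and 378 CPM in the pair and 194, 214 and 184 CPM in the triplet (log2 fold change -0.70 ± 0.25, edgeR adjusted p = 0.0482), again without overlap, and its call was lost without any 1 replicate of the triplet or without replicate 1 or 3 of SeV + cGAMP (adjusted p 0.0757 to 0.261) and by DESeq2 (adjusted p = 0.0691). Trim30a was lost without replicate 2 or 3 of the triplet or without replicate 2 of SeV + cGAMP (adjusted p 0.0819 to 0.144). Ifit1 (95% interval of the log2 difference -0.17 to 0.35), Cxcl10 (-0.23 to 0.40) and Rsad2 (-0.12 to 0.45) were not called.

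Of 23 scavenger and resting-state phagocyte genes (median -0.16), 8 fell with LPS and 4 rose, against 6.06% and 6.97% of all genes. Clec7a, the β-glucan receptor Dectin-1, was 769, 744 and 802 CPM in SeV + cGAMP and 270, 313 and 250 CPM in the triplet (log2 fold change -1.47 ± 0.17, edgeR adjusted p = 7.96e-13). Csf1r, the M-CSF receptor, went from 734, 1140 and 988 to 499, 533 and 520 CPM (log2 fold change -0.90 ± 0.15, edgeR adjusted p = 7.61e-07). Ccr2 had 35 and 3 UMIs (12.3-fold lower, 95% counting interval 3.87 to 62.3). Clec4e, the receptor Mincle, and Marco, a scavenger receptor, rose 2.45-fold (log2 fold change 1.29 ± 0.11, edgeR adjusted p = 2.95e-21) and 2.53-fold (log2 fold change 1.34 ± 0.24, edgeR adjusted p = 1.94e-06). Csf1r and Fcgr1 are macrophage markers, whose sum was 2870 to 3830 CPM in the pair and 2330 to 2620 CPM in the triplet. Of 9 tested markers, 5 fell with LPS (Csf1r, C1qc, Fcgr1, Mrc1 and Cd68) and 1 rose, Emr1 (a macrophage surface receptor), from 150 to 391 CPM on average (log2 fold change 1.28, edgeR adjusted p = 3.31e-07). Their part in the result was not tested. Csf1r also overlaps Hmgxb3 on the opposite strand in the annotation.

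Further genes were named for the size of their change with LPS. Lad1 had 35 UMIs in the triplet and 0 in SeV + cGAMP, which makes it at least 11.1-fold higher with 3 counts over the group as the floor. Tarm1, a myeloid receptor, rose from 26.8, 10.5 and 0 to 141, 214 and 230 CPM (log2 fold change 4.12 ± 0.44, edgeR adjusted p = 1.11e-15). Batf, a transcription factor of the AP-1 family, had 1 UMI in the pair and 44 in the triplet (ratio 41.9, 95% counting interval 7.13 to 1690), and Penk (enkephalin) 2 and 39 (ratio 18.5, 4.8 to 159). On the falling side, Plau (urokinase) was 358, 508 and 243 CPM in the pair and 41.1, 33 and 52.7 CPM in the triplet (log2 fold change -3.14 ± 0.37, edgeR adjusted p = 3.53e-13), and Bach1, a repressor of heme and antioxidant genes, 89.5, 89.1 and 119 and 5.87, 33 and 0 CPM (log2 fold change -2.79 ± 0.52, edgeR adjusted p = 6.04e-06). The kinase gene Srpk2 had 26 UMIs in the pair and 0 in the triplet and was at least 9.11-fold lower. Ch25h, an oxysterol synthase, was higher with LPS (log2 fold change 1.35 ± 0.26, edgeR adjusted p = 2.02e-05). Glycolytic Pkm and Ldha fell (2 of 18, near the background of 13% called among all genes), Pkm being lost without replicate 2 of SeV + cGAMP (adjusted p = 0.118) and Ldha without replicate 1 of the triplet or without replicate 2 of SeV + cGAMP (adjusted p 0.0712 to 0.368). Among 6 cell cycle genes H2afz rose, and Pcna, Tubb5 and Hmgb2 fell. Tubb5 was lost without replicate 1 or 3 of the triplet or without replicate 1 or 2 of SeV + cGAMP (adjusted p 0.0802 to 0.135) and Hmgb2 without replicate 2 or 3 of the triplet or without any 1 replicate of SeV + cGAMP (adjusted p 0.0504 to 0.228). Among 12 guanylate-binding and immunity-related GTPases Gbp2 and Gbp3 rose and Gbp8 fell, against 13% of all genes called, Gbp2 being lost without replicate 1 or 3 of SeV + cGAMP (adjusted p 0.054 to 0.0619) and Gbp8 without replicate 1 or 2 of the triplet or without replicate 1 or 3 of SeV + cGAMP (adjusted p 0.0566 to 0.221). By DESeq2 the calls of Tap2, Erap1, Hmgb2 and Gbp8 were lost as well (adjusted p = 0.0767, 0.0794, 0.0748 and 0.0526). With library size alone Tap2, Gbp2 and Trim30a were lost (adjusted p = 0.0875, 0.0572 and 0.0697 by edgeR). Thinning ended the calls of Cd83, Erap1, Gbp8, Hmgb2, Ifnb1, Il27, Tap2, Tlr13, Trim30a and Tubb5, and fitting without the filter on low counts those of Bcl3, Erap1, Gbp2, Gbp8, Hmgb2, Ifnb1, Tap2, Tlr13, Trim30a and Tubb5. Without any 1 of the 6 libraries the number of called genes was between 479 and 544.

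No gene was called above or below all 3 pairs at once. A gene's largest p is never below its p for SeV added to LPS + cGAMP, where the smallest adjusted p was 0.453. In the fit of all libraries this test could therefore call no gene, and it restates the SeV result. By edgeR with Benjamini-Hochberg adjustment of the largest of the 3 p-values, 0 of 4720 genes (0%) were above all 3 pairs and 0 (0%) below, and DESeq2 gave 0 and 0. With an unadjusted largest p under 0.05 there were 6 above (0.127%) and 20 below (0.424%). In a fit of the 12 libraries alone, 1 gene, Actb (again named after its values were seen), was below all 3 pairs, at 26200 to 32000 CPM in the triplet against 34600 to 52600 CPM in the pairs. Which pairs lay close to the triplet differed by gene. Il6 in the triplet was close to LPS + cGAMP (3000 and 3230 CPM on average). Oasl1 was close to both cGAMP pairs (3120 CPM in the triplet, 3170 and 3000) and above LPS + SeV (1690), and Cd40 was close to both LPS pairs (1980 CPM, 1810 and 2080).

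Each ligand's effect on the pair was then set against its effect alone, on the log2 scale, by testing the triplet minus the pair against the single ligand minus Ctrl. A negative difference means that the ligand raised a gene less, or lowered it more, on top of the pair than alone. For cGAMP 676 genes differed (14.3%), 168 positive (3.56%) and 508 negative (10.8%). For SeV 589 differed (12.5%), 122 positive (2.58%) and 467 negative (9.89%), and for LPS 669 (14.2%), 157 positive (3.33%) and 512 negative (10.8%). Ctrl libraries hold 61823 to 89530 UMI counts, fewer than the others, and have scaling factors of 1.26 to 1.27, against 0.98 in the triplet. With library size alone, positive and negative counts were 325 and 416 for cGAMP, 242 and 369 for SeV and 307 and 422 for LPS, and the median difference over all genes rose to 0.29, 0.24 and 0.23. With RLE factors they were 234 and 461, 189 and 409, and 238 and 455, with medians of 0.17, 0.15 and 0.15. By DESeq2 they were 188 and 412, 147 and 356, and 196 and 397. Without the filter on low counts they were 68 positive and 511 negative for cGAMP, 29 and 466 for SeV and 51 and 541 for LPS. After thinning they were 59 and 335, 40 and 311, and 91 and 334. Without replicate 3 of Ctrl the SeV counts were 78 and 374.

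Interferon-induced genes lay on the negative side. All 33 tested differed for cGAMP (median -3.44) and for SeV (median -3.43), and 31 of 33 differed for LPS (median -3.38), with 0 positive. Over all tested genes 10.8%, 9.89% and 10.8% were negative for cGAMP, SeV and LPS. The all-gene median was up to 0.29 under the other scalings, and the list's medians were not computed under them. The part of scaling in these differences was not tested. Cxcl10 rose by 4.86 ± 0.23 (SE) on the log2 scale with cGAMP alone, by 4.21 ± 0.23 with SeV alone and by 4.25 ± 0.23 with LPS alone, but by 0.11 when cGAMP was added to the pair. Its mean was 384 CPM in Ctrl, 7300 in LPS, 7100 in SeV, 11100 in cGAMP and 10900 in the triplet. For Mx1 the differences were -4.10 ± 0.21 for cGAMP, -3.90 ± 0.21 for SeV and -3.73 ± 0.21 for LPS. Ifnb1 was an exception for LPS, which left it at 0, 22.2 and 17.9 CPM when given alone, close to Ctrl (13.9, 12.5 and 9.6 CPM). Its difference was -3.73 for cGAMP (edgeR adjusted p = 1.97e-05), -3.69 for SeV (edgeR adjusted p = 3.6e-05) and -1.03 for LPS (edgeR adjusted p = 0.619). Guanylate-binding and immunity-related GTPases gave 12 of 12 negative for cGAMP and 11 of 12 for SeV and for LPS.

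Fewer of the cytokines were called. In each of the 3 tests 5 of 17 were negative (Tnf, Il1rn, Il15, Tnfsf10 and Tnfsf15) and 0 positive. Over all tested genes 9.89% to 10.8% were negative and 2.58% to 3.56% positive, so 0 positive is near the background. Il6 was not called in any of them, at 0.30 ± 0.37 for cGAMP, -0.33 ± 0.36 for SeV and 0.30 ± 0.36 for LPS. Cxcl1 differed upwards. It was 27.5, 29.2 and 30.7 CPM with cGAMP alone and 41.6, 24.9 and 106 CPM in Ctrl, while cGAMP on top of LPS + SeV raised it 4.74-fold, and the difference was 3.31 ± 0.79 (edgeR adjusted p = 0.000626). For LPS the Cxcl1 difference was 2.83 ± 0.75 (edgeR adjusted p = 0.00264), and for SeV it was 0.75 ± 0.70 (edgeR adjusted p = 0.584). Cxcl2 and Cxcl3 were the other positive chemokines for cGAMP, against 10 negative of 18, and Cxcl14 was the other one for LPS, against 8 negative. MHC class II genes had 0 of 8 called in each test, which is near the background at 12.5% to 14.3% of all genes called.

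**Figure D5:**
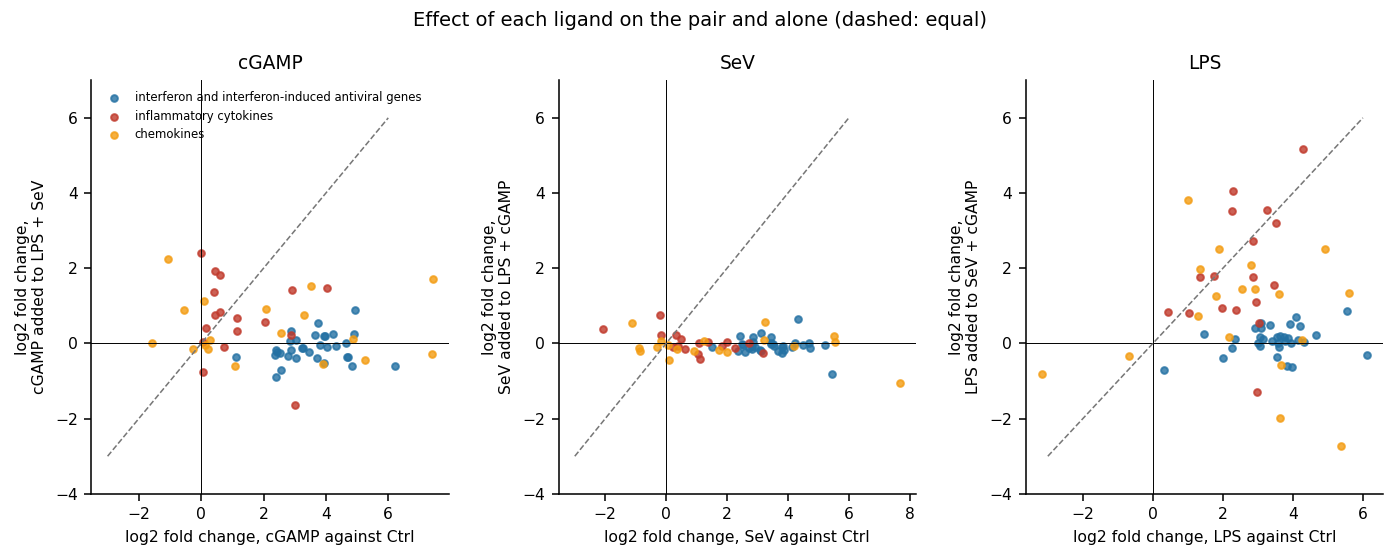
Log2 fold change of each ligand when added to the pair (vertical axis) against its log2 fold change alone over Ctrl (horizontal axis) for tested members of 3 gene lists, with the dashed line where both are equal. Most interferon-induced genes (blue) lie far right and near 0 on the vertical axis in all panels, with Ifnb1 an exception in the LPS panel (0.32 alone, -0.70 on the pair), and cytokines (red) and chemokines (orange) rise above 0 in the LPS panel and in part in the cGAMP panel.

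The genes named for the largest negative differences had 0 UMIs in Ctrl. Upp1 (uridine phosphorylase) had 0 UMIs there and 155, 147 and 148 CPM with cGAMP, SeV and LPS alone, and 241, 231 and 303 CPM in the triplet. Phf11a, an interferon-induced gene with close relatives in its cluster, had 0 UMIs in Ctrl and 99.8, 148 and 85.6 CPM in the triplet. Lhx2 and Ccl12 also had 0 UMIs in Ctrl. Fitted differences of such genes depend on a small added count and are not given.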

How the data were processed

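Messenger RNA of mouse bone marrow-derived dendritic cells was measured by sequencing with unique molecular identifiers (UMIs). The authors deposited 1 table of raw UMI counts per gene for the whole series. BWA 0.7.15 and the mm10 build are named in the submitters' processing notes, and the gene annotation, strand setting and UMI collapsing are not given in the sources used here. Groups and replicate numbers were taken from the sample labels, and every column matched 1 sample.

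All tests used edgeR 4.0.16 under R 4.3.3. After filterByExpr, 4720 of 23481 genes (95.72% of UMIs) remained. They were scaled by TMM and fitted with 1 coefficient per group by quasi-likelihood (128 residual degrees of freedom, common biological coefficient of variation 10.25%). The contrasts were the triplet minus each pair, and each of these minus the effect of the added ligand alone over Ctrl. All tests were two-sided, with Benjamini-Hochberg adjustment over all tested genes and a threshold of 0.05. For genes above or below all pairs, the largest of the 3 p-values was adjusted. The scripts were tested on simulated data. Totals between 110231 and 242927 UMIs per library limit the precision for weakly expressed genes, and counting intervals (95%, exact) and the floor of 3 counts cover counting error only.

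Named genes were a fixed set of response genes, the 8 largest called rises and 8 largest falls per contrast among genes of at least 50 CPM without overlap between groups, up to 10 above and 10 below all pairs, the 3 largest differences per sign, and up to 4 members per list by adjusted p. A few genes that these rules name are not reported here. The comparison, gene lists and rules were chosen with earlier results of these data known. Alternatives were DESeq2 1.42.0, RLE factors, library size alone, no filter, a 2-fold minimum, only the compared groups, a replicate block, thinning to the smallest total and leaving out each library.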

Additional observations from a re-analysis of the deposited data

Results flagged for a closer look

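Each ligand's effect on the pair differed from its effect alone in many genes, by a test of the difference itself in edgeR with Benjamini-Hochberg adjustment. The number of genes was 676 for cGAMP, 589 for SeV and 669 for LPS. Negative differences were in the majority for each ligand, with 508, 467 and 512 genes, and all 33 tested interferon-induced genes were among them for cGAMP and for SeV. The tests share the triplet and Ctrl libraries, and the Ctrl libraries have the fewest UMIs (61823 to 89530).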

How the results depend on the processing

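The number of genes changed by cGAMP on top of LPS + SeV (191) was 154 by DESeq2, 188 with RLE factors, 191 with library size alone, 134 without the filter, 131 after thinning, 267 with only the compared groups in the fit and 108 with a 2-fold minimum. It was 125 to 143 with 1 library left out, fits that by construction hold fewer libraries. The 615 genes changed by LPS became 447 to 652 under the same settings other than the 2-fold minimum (417), and 479 to 544 with 1 library left out. For SeV the count was 0 in all settings run, leave-one-out fits included (0 to 0), except the fit of the compared groups alone, which called 6. No gene was above all pairs in any setting, and 1 was below them in the fit of the compared groups alone. Of the differences from the effect alone, thinning left 394 for cGAMP, 351 for SeV and 425 for LPS, and leaving out 1 library gave 560 to 671, 452 to 551 and 546 to 642. No named gene that was called in the main fit or in a setting changed direction in that setting. Sign changes of genes called in neither were not counted. For the differences from the effect alone, only the genes named for them were followed. For named genes with cGAMP added, 1491 of 1625 combinations of gene and setting kept their side of the threshold, and with LPS added 1563 of 1664. List members that are only counted were not followed one by one under these settings.

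Replicate numbers did not pair the libraries: deviations of a triplet library and a pair library from their group means correlated at -0.04 to 0.02 whether or not the numbers were the same. With the replicate number as a block, 191 genes were called for cGAMP, 0 for SeV and 629 for LPS, and 694, 606 and 682 for the differences of cGAMP, SeV and LPS. Among named genes the block ended the call of Bcl3 with cGAMP added (adjusted p = 0.0506 by edgeR) and changed no other call.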
